A study of Mus musculus with 6 samples.

Results

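Integrins are the receptors through which fibroblasts hold on to collagen, laminin and fibronectin, and focal adhesions are the protein plaques that tie those receptors to actin filaments. Transcripts of 38 genes of this system were looked up by symbol through GENCODE M21, and 36 of them were among the 16540 genes of the table, comprising 13 integrin chains, 17 adaptors and kinases, 2 discoidin domain receptors and 4 syndecans. Itga2, a collagen-binding chain, and Itga4, a chain of the receptor for VCAM1 and fibronectin, had no row in the table analysed here. All 36 genes passed the filter on low values.

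The cells were NIH-3T3, an established mouse embryonic fibroblast line of NIH/Swiss origin, infected with lentivirus for Cas9 and 1 guide RNA, selected with 2 ug/mL puromycin and kept as uncloned pools. The groups were PC sg2 (n = 2 libraries) and PC sg5 (n = 2), 2 guides against pyruvate carboxylase, and R26 sg1 (n = 2), the control guide. Every group carried Cas9 and a guide and spent 48 h in DMEM with 0.2 mM glutamine and 10% dialyzed serum. The study asked whether fibroblasts need this enzyme, which makes oxaloacetate from pyruvate in mitochondria, to produce collagen. A pool can hold unedited cells, and in bulk RNA fewer cells of a type and less RNA per cell cannot be told apart.

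The level of Pcx, the targeted gene, was 316 and 375 normalised counts (reads divided by the size factor of their library) with PC sg2, 713 and 716 with PC sg5, against 2914 and 3015 in the controls, so all 4 PC libraries carried less of the targeted transcript. Recovered reads ranged from 22895172 to 63701586 in the PC libraries, with the lowest in PC sg5 replicate 2, and were 69337013 and 71710049 in the controls. Of 8 fibroblast markers, 7 had a row, and their summed level was 428910 to 441827 normalised counts in the PC libraries and 984432 to 1023465 in the controls. Fap had no row, and Lum was low, at 8.5 to 21.4 normalised counts in the PC libraries and 42.1 to 79.1 in the controls. Whether these markers bear on the adhesion genes was not tested. Markers of other cell types were scarce: 3 of 8 leukocyte markers had a row (summed level 153 to 229 in PC, 315 to 340 in control), 1 of 7 epithelial (8.55 to 19.1 in PC, 57.4 to 58.7 in control), 2 of 5 endothelial (32.4 to 53 in PC, 36.3 to 45.5 in control) and 1 of 5 muscle (11.7 to 26.3 in PC, 72.3 to 90.6 in control). Ptprc, Epcam, Cdh5 and Myog, which define these types, had no row. The platelet list had 2 of 4 markers, and its sum of 604 to 715 in PC and 1412 to 1436 in control libraries was mostly Itga2b, a further integrin chain. The other platelet marker, Gp1ba, was higher, with 84.2, 62.7, 67.8 and 124 in the PC libraries and 21.6 and 34.8 in the controls, and Pf4 had no row.

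An integrin is a pair of 1 alpha and 1 beta chain, and the alpha chain largely sets the ligand. Talin and kindlin bind the tail of the beta chain and switch the receptor on. Vinculin, alpha-actinin, filamin and the complex of ILK, PINCH and parvin then carry force to actin, while FAK, Src, paxillin and p130Cas form the signalling arm. Discoidin domain receptors are tyrosine kinases that bind collagen directly, and syndecans are heparan sulfate proteoglycans that act as co-receptors.

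Transcripts of the system were mostly lower in the PC pools. Both PC guides together against control, the transcripts of 28 among 36 genes fell (1 of these, Ddr2, turned under quantile normalisation), 6 rose and 2 missed the threshold, an adjusted p under 0.05 from limma with Benjamini-Hochberg adjustment over 16526 genes tested. Across all genes tested, 33.6% fell and 34.3% rose by the same rule, so 67.9% passed, and the 28 genes that fell are 77.8% of the 36. The median log2 fold change was -0.60 for the 36 genes and -0.01 for all genes tested. Changes of at least 2-fold were found for 7 of the 36 (6 lower, 1 higher), and for 17.8% of all genes tested (11.3% lower). The libraries of the 34 genes past the threshold did not overlap between PC and control, a separation that 73.2% of all genes tested also showed. The 6 genes that rose were Itga9, Itgb7, Lims1, Zyx, Ptk2 and Bcar1.

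**Figure D1:**
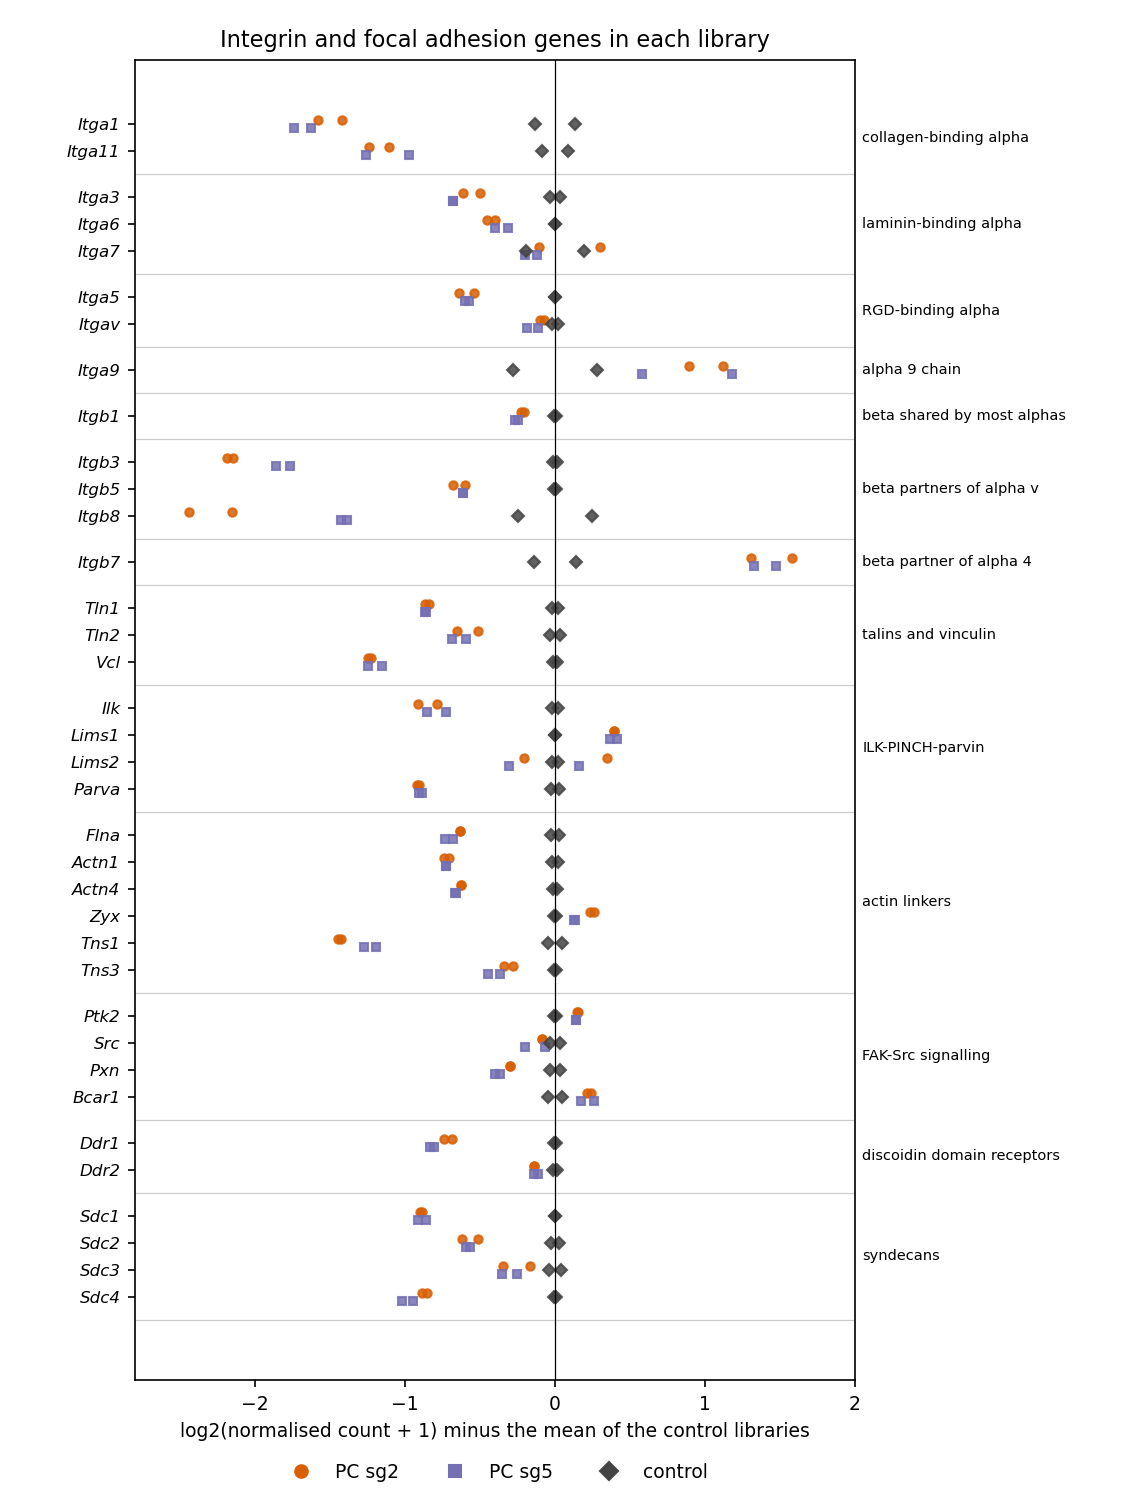
Level of the 36 genes in each library, as log2(normalised count + 1) minus the mean of the 2 control libraries, 1 point per library, grouped by role. The PC points lie left of the control points for 28 genes and right of them for 6, with Itgb3 and Itgb8 farthest left and Itgb7 farthest right.

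**Figure D2:**
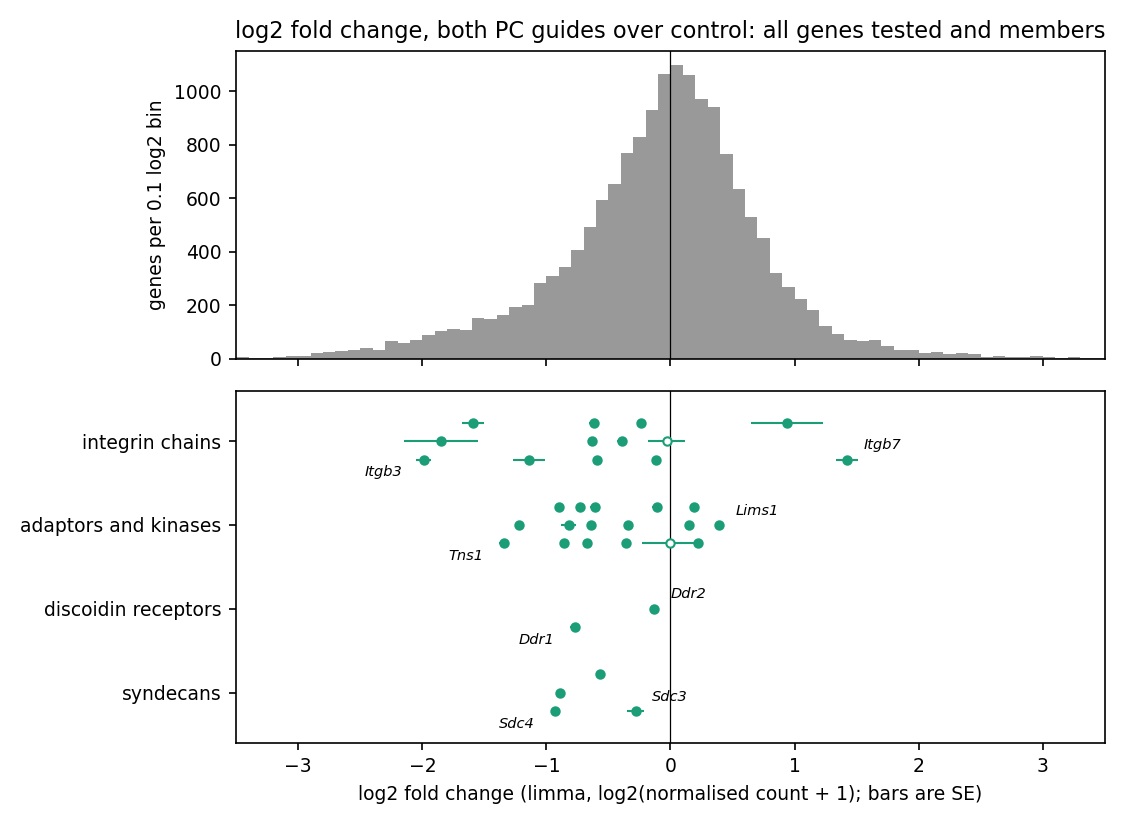
Top, the number of genes per bin of log2 fold change for both PC guides over control, for all 16526 genes tested, with a few genes beyond the axis limits; bottom, the 36 genes with SE bars, filled where past the threshold and open where not. The members reach from -1.99 (Itgb3) to 1.42 (Itgb7), with the median of the 36 at -0.60 and that of all genes at -0.01.

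Promoter sequence is shown for 3 genes that fell, because this stretch of DNA can be read for sites of factors that control adhesion genes. RefSeq windows of GRCm38.p6 were found for 27 of the 36 genes, and 22 of these 27 fell. The CArG box, the site of serum response factor, was in the window of Vcl alone, and in 1.81% of the 27025 genes with a window. The motif GGAATG, the core of TEAD sites, was in the windows of 4 of the 27 genes (Itgb1, Vcl, Flna and Actn4). That share is near the 16.6% of all genes with a window. These 4 genes fell, as did 22 of the 27. The 3 genes shown were picked from these 4 for holding a match. Both strands were searched over 250 bases before to 50 after a start, and the matches in capitals overlap no other motif searched. TGACTCA, the AP-1 site, was found for Itga9, Zyx and Ddr1 (5.95% of genes), CACGTG, the E-box, for Ilk and Lims1 (8.09%), and GGGCGG, the GC box, for 20 of the 27 (38.2%). The 250 bases before the start are given 5′ to 3′ on the gene's strand, with matches to the CArG box and to GGAATG in capitals, which read CATTCC where the match is on the other strand. A match is a run of letters and not a measured site. The windows are chr14:20929148-20929397 on the plus strand for Vcl, chr7:28962333-28962582 on the minus strand for Actn4 and chr8:128685404-128685653 on the plus strand for Itgb1.
Vcl: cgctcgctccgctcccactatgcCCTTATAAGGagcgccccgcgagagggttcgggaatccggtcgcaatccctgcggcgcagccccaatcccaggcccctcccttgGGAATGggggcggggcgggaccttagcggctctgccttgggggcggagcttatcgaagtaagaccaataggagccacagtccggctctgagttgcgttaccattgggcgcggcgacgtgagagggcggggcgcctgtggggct
Actn4: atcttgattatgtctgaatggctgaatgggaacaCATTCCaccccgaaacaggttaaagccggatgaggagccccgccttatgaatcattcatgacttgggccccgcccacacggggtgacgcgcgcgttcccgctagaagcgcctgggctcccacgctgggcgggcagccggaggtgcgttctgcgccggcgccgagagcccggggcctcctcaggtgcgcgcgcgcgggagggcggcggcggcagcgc
Itgb1: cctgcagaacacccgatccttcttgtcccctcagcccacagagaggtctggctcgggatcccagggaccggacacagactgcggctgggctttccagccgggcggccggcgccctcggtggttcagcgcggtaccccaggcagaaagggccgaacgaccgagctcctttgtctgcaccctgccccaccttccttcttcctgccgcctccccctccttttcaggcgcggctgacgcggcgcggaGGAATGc
Counted from the start, with -1 the last base before it, the CArG box of Vcl begins at -227 and its GGAATG at -143, the match in Actn4 begins at -216 and that in Itgb1 at -7.

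The collagen-binding chains Itga1 and Itga11 had the lowest fold changes of the 8 alpha chains among the 36 genes. Itga1 (ENSMUSG00000042284, GRCm38 chromosome 13, 114953096 to 115101964, minus strand) forms a collagen receptor with beta 1 and had 382 and 343 normalised counts with PC sg2, 306 and 331 with PC sg5, against 936 and 1123 in the controls. Itga11, the chain of a receptor for fibrillar collagen in fibroblasts (ENSMUSG00000032243, chromosome 9, 62677826 to 62783982, plus strand), had 189 and 172 normalised counts with PC sg2, 170 and 207 with PC sg5, against 434 and 383 in the controls. For both genes every PC library lay below both controls. The log2 fold change was -1.59 ± 0.09 (SE) for Itga1 and -1.14 ± 0.13 for Itga11, with limma Benjamini-Hochberg adjusted p-values of 1.80e-12 and 7.22e-08. PC libraries kept 33.1% and 45.2% of the control mean for these 2 chains. Itga10, a further collagen-binding chain from the wider adhesion list, named after its values were seen, went the other way. It had 291, 298, 365 and 346 normalised counts in the PC libraries and 250 and 227 in the controls (log2 fold change 0.44 ± 0.11, SE, limma adjusted p = 0.00134). Its value is uncertain, since another annotated gene covers 33.5% of its exon bases and the use of strand is not known. Itga2b and Itga8, alpha chains of that list outside this class, were also named after their values were seen. They fell by amounts close to that of Itga11 (log2 fold changes -1.23 ± 0.08 and -1.21 ± 0.13, SE).

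Laminin-binding chains moved less. Itga3, a receptor chain for laminins of basement membranes, averaged 2247 ± 134 normalised counts in PC (SD, n = 4) and 3448 ± 104 in control libraries (SD, n = 2), a log2 fold change of -0.62 ± 0.04 (SE). Itga6, the alpha chain of the other main laminin receptor of many cells, fell by 0.39 ± 0.04 on the log2 scale, with 3047 ± 125 in PC (SD, n = 4) and 3992 ± 6.66 in control libraries (SD, n = 2). Itga7, best known from muscle, had 192, 255, 190 and 180 in the PC libraries and 236 and 181 in the controls. Its groups overlapped, and it did not pass the threshold (log2 fold change -0.03 ± 0.15, SE, limma adjusted p = 0.869).

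The chains that read the RGD motif of fibronectin and vitronectin differed from each other. Itga5, the alpha chain of the classical fibronectin receptor (ENSMUSG00000000555, chromosome 15, 103344286 to 103366763, minus strand), had 7634 and 8173 normalised counts with PC sg2, 7847 and 7964 with PC sg5, against 11857 and 11893 in the controls. It fell by 0.59 ± 0.03 (SE) on the log2 scale, with a limma adjusted p of 1.90e-13. Itgav, the alpha v chain that pairs with several beta chains, had 13400, 13606, 13272 and 12626 in the PC libraries and 14154 and 14529 in the controls. All 4 PC libraries were lower, by a small step: the log2 fold change was -0.12 ± 0.03 (SE), with an adjusted p of 7.00e-04 by limma. Under quantile normalisation, which gives every library the same distribution of values, it was -0.03 (adjusted p = 0.302 by limma), and over all 15 alternatives Itgav was also not past the threshold without the intensity trend, which ties the expected spread of a gene to its level (adjusted p = 0.06).

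Itga9, a chain that binds tenascin and osteopontin, was one of the 6 genes that rose, and its counts were low. It had 68.6, 58.5, 71.8 and 47 normalised counts in the PC libraries and 38 and 25.4 in the controls, a log2 fold change of 0.94 ± 0.29 (SE) with a limma adjusted p of 0.00612. Without control replicate 2 the change was 0.66 and not past the threshold (adjusted p = 0.122).

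Among beta chains, the common partner moved little and the partners of alpha v fell. Itgb1, shared by most alpha chains of fibroblasts (ENSMUSG00000025809, chromosome 8, 128685654 to 128733200, plus strand), had 40057 and 39508 normalised counts with PC sg2, 38957 and 38407 with PC sg5, against 46103 and 46376 in the controls. PC libraries held 84.8% of the control mean, a log2 fold change of -0.24 ± 0.02 (SE), which was -0.13 under quantile normalisation. Itgb5, a vitronectin receptor chain, averaged 7659 ± 197 in PC (SD, n = 4) and 11822 ± 56.3 in control libraries (SD, n = 2) and fell by 0.63 ± 0.03 (SE) on the log2 scale.

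Itgb3, the other vitronectin receptor chain, which also binds fibronectin and fibrinogen, fell most of the 36 (ENSMUSG00000020689, chromosome 11, 104608000 to 104670476, plus strand). It had 596 and 614 normalised counts with PC sg2, 800 and 750 with PC sg5, against 2700 and 2739 in the controls. The PC libraries held 25.4% of the control mean, and the groups were far apart relative to their spread: the log2 fold change was -1.99 ± 0.06 (SE) with a limma adjusted p of 1.37e-17. Only 2.63% of all genes tested had a lower fold change. Itgb8, a chain known for activating latent TGF-beta with alpha v, was low throughout, with 21 and 17 normalised counts with PC sg2, 35.4 and 36.3 with PC sg5, against 81.3 and 115 in the controls (log2 fold change -1.85 ± 0.30, SE, limma adjusted p = 9.47e-06).

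Itgb7 rose. This chain is best known from lymphocytes, where it pairs with the alpha 4 chain, encoded by Itga4, and the alpha E chain, encoded by Itgae (ENSMUSG00000001281, chromosome 15, 102215995 to 102231944, minus strand). It had 1100 and 913 normalised counts with PC sg2, 1021 and 923 with PC sg5, against 405 and 334 in the controls. The PC mean was 2.68 times the control mean. On the log2 scale it rose by 1.42 ± 0.09 (SE), and limma gave an adjusted p of 5.00e-12. Itga4 had no row, and Itgae had 46.8, 20.2, 63.7 and 42.8 in the PC libraries and 61.2 and 56.6 in the controls and did not pass the threshold. Ptprc, the pan-leukocyte marker, had no row. Of the 3 leukocyte markers with a row, Itgb2 and Csf1r fell and Cd68 did not pass the threshold. Cd68 had 54.6 to 89.8 normalised counts in the PC libraries and 68.6 and 68.9 in the controls. Whether leukocyte transcripts bear on the rise of Itgb7 was not tested.

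Levels can be set against each other only per length, so normalised counts were divided by the kb of exon annotated for each gene. On this scale the 8 alpha chains summed to 3652 ± 74.7 in PC (SD, n = 4) and 4953 ± 42.9 in control libraries (SD, n = 2), and the 5 beta chains to 12245 ± 194 in PC and 15261 ± 52.1 in control libraries (SD, same n). Itga5 made up 42.8% to 44.7% of the alpha sum in PC and 48.4% to 48.8% in control libraries, and Itgav 32.6% to 34.5% in PC and 26.8% to 27.1% in control libraries. With the length of the longest coding transcript in place of all exons, a choice made after the data were seen, the mean shares in PC libraries were 36.3% for Itga5 and 37.7% for Itgav, so the order of these 2 chains depends on the length used. The order of Itga3 and Itga6, at 10.8% and 9.25% in PC libraries by all exons, turned in the same way (9.29% and 14.2%), and the other 4 chains each held at most 1.72% in every library by all exons. Among beta chains Itgb1 held 78% to 79.4% in PC and 74.2% to 74.3% in control libraries, and Itgb5 17% to 18% in PC and 21.8% in both control libraries. Itgb3 held 0.807% to 1.11% of the beta sum in PC and 3.01% to 3.03% in control libraries, while Itgb7 held 2.7% to 3.17% in PC and 0.789% to 0.96% in control libraries. These 2 chains changed places: Itgb7 was above Itgb3 in every PC library and below it in both controls.

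**Figure D3:**
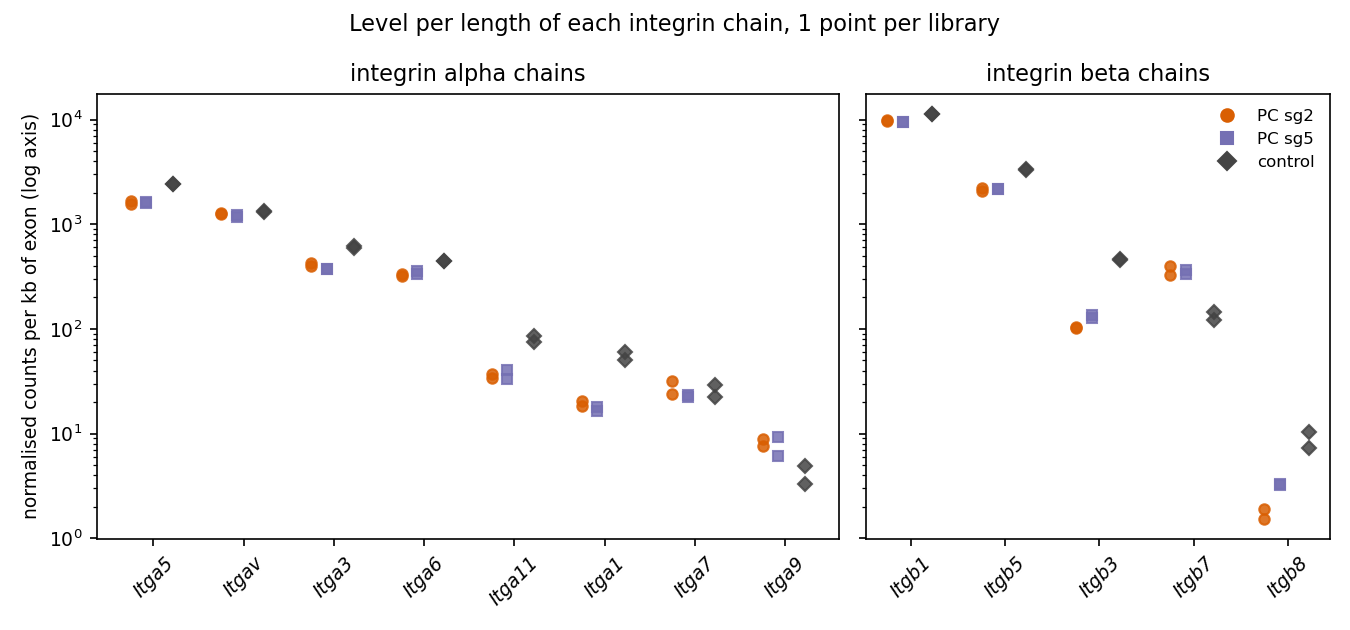
Normalised counts per kb of exon for each integrin chain (log axis), 1 point per library, for alpha chains on the left and beta chains on the right, ordered by the control mean. Itgb1 lies highest at 9613 per kb in PC and 11330 in control libraries on average, and Itgb3 and Itgb7 swap order between PC and control.

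Transcripts of proteins that link integrins to actin were mostly lower, and the largest changes among them were in Vcl and Tns1. Tln1, the main talin and the adaptor that activates integrins, had 20120, 20505, 20263 and 20176 normalised counts in the PC libraries and 36258 and 37204 in the controls. The 4 PC values differ by little and lie at 55.2% of the control mean (log2 fold change -0.86 ± 0.02, SE, limma adjusted p = 1.97e-18). Tln2, its paralogue, averaged 3348 ± 180 in PC (SD, n = 4) and 5114 ± 176 in control libraries (SD, n = 2) and fell by 0.61 ± 0.04 (SE) on the log2 scale.

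Vcl encodes vinculin, which binds talin and actin under load (ENSMUSG00000021823, chromosome 14, 20929398 to 21033676, plus strand). It had 10942 and 11120 normalised counts with PC sg2, 10982 and 11718 with PC sg5, against 25793 and 26233 in the controls. PC libraries held 43% of the control mean. The log2 fold change was -1.22 ± 0.03 (SE), and limma gave an adjusted p of 1.73e-19. Exons of Ap3m1 cover 25.5% of its exon bases, and with the use of strand not known, reads of both genes cannot be told apart there.

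Tns1 encodes tensin 1, a protein of mature fibrillar adhesions (ENSMUSG00000055322, chromosome 1, 73910231 to 74124449, minus strand), and had 3019 and 2967 normalised counts with PC sg2, 3541 and 3347 with PC sg5, against 7860 and 8362 in the controls. It fell by 1.34 ± 0.04 (SE) on the log2 scale, with a limma adjusted p of 5.46e-18. Tns3, another tensin, fell by 0.36 ± 0.03 (SE).

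Transcripts of filamin A and the alpha-actinins, proteins that crosslink actin filaments, fell by similar amounts. Flna had 101029, 101196, 98016 and 94484 normalised counts in the PC libraries and 154341 and 159506 in the controls. Its log2 fold change was -0.67 ± 0.02 (SE), and -0.34 under quantile normalisation. Actn1 and Actn4 fell by 0.73 ± 0.02 and 0.64 ± 0.02 (SE) on the log2 scale and kept 60.4% and 64% of their control means.

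Zyx, which encodes zyxin, a LIM protein recruited to adhesions and stress fibres under tension, rose (ENSMUSG00000029860, chromosome 6, 42349630 to 42360213, plus strand). It had 32237 and 32948 normalised counts with PC sg2, 30127 and 29968 with PC sg5, against 27663 and 27286 in the controls. Every PC library was higher, and the log2 fold change was 0.19 ± 0.02 (SE) with a limma adjusted p of 1.05e-07. Under quantile normalisation the change was 0.35.

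Transcripts of the ILK, PINCH and parvin complex, which works as 1 unit of 3 proteins, moved in different directions. Parva, which encodes alpha-parvin, had 9976, 9850, 10096 and 9961 normalised counts in the PC libraries and 18348 and 18995 in the controls (log2 fold change -0.90 ± 0.03, SE, limma adjusted p = 1.01e-17). Ilk, which encodes integrin-linked kinase, averaged 1007 ± 55.8 in PC (SD, n = 4) and 1776 ± 34.5 in control libraries (SD, n = 2) and fell by 0.82 ± 0.06 (SE). Its value is uncertain, since Rrp8 and Taf10 cover 89.7% of its annotated exon bases.

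Lims1, which encodes PINCH1, rose: it had 10192, 10180, 10332 and 9969 in the PC libraries and 7747 and 7742 in the controls. The log2 fold change was 0.39 ± 0.03 (SE), with a limma adjusted p of 4.40e-11. Lims2, its paralogue PINCH2, had 68.6, 101, 89 and 64.1 in the PC libraries and 78.3 and 80.5 in the controls, which overlap, and it did not pass the threshold (adjusted p = 0.996 by limma).

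Transcripts of the signalling arm moved by small steps in both directions. Ptk2, which encodes focal adhesion kinase, had 7652, 7621, 7589 and 7590 normalised counts in the PC libraries and 6848 and 6910 in the controls, and Bcar1, which encodes the FAK and Src substrate p130Cas, averaged 6914 ± 169 in PC (SD, n = 4) and 5933 ± 272 in control libraries (SD, n = 2). Both rose, by log2 fold changes of 0.15 ± 0.03 and 0.22 ± 0.03 (SE), with limma adjusted p-values of 1.34e-04 and 7.23e-06. Pxn, which encodes the scaffold paxillin, fell by 0.34 ± 0.03 (SE). Src had 5987, 5980, 6069 and 5543 in the PC libraries and 6494 and 6218 in the controls, a log2 fold change of -0.11 ± 0.04 (SE) with a limma adjusted p of 0.0116. That call was lost without control replicate 1 (-0.08, adjusted p = 0.177), without the intensity trend (adjusted p = 0.144) and after rescaling without the 50 most abundant genes (-0.06, adjusted p = 0.111).

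Of the discoidin domain receptors, Ddr1 fell and Ddr2 depended on the scaling. Ddr1 had 3551, 3681, 3336 and 3401 normalised counts in the PC libraries and 5899 and 5975 in the controls (log2 fold change -0.77 ± 0.04, SE, limma adjusted p = 2.28e-14). Ddr2, the fibrillar collagen receptor of connective tissue cells, had 30262, 30190, 30787 and 30241 in the PC libraries and 33054 and 33607 in the controls. Its log2 fold change was -0.13 ± 0.02 (SE) with a limma adjusted p of 1.03e-05, and it turned to 0.08 (adjusted p = 0.00221) under quantile normalisation, so no direction is given for Ddr2. Per kb of exon, Ddr1 made up 17.4% to 19.1% of the summed level of both receptors in PC and 25.6% to 25.7% in control libraries.

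Transcripts of all 4 syndecans fell. Sdc4, the syndecan of focal adhesions, had 4369 and 4477 normalised counts with PC sg2, 4193 and 3976 with PC sg5, against 8053 and 8111 in the controls. Sdc1, which is abundant on epithelial and plasma cells, had 4485, 4440, 4573 and 4393 in the PC libraries and 8288 and 8299 in the controls. For both genes every PC library lay below both controls, with log2 fold changes of -0.93 ± 0.03 and -0.89 ± 0.03 (SE) and limma adjusted p-values of 4.34e-16 and 4.22e-16. Sdc2, a syndecan of mesenchymal cells, fell by 0.57 ± 0.03 (SE) and Sdc3, best known from neurons, by 0.28 ± 0.07. Per kb of exon the 4 syndecans summed to 5502 ± 134 in PC (SD, n = 4) and 9263 ± 128 in control libraries (SD, n = 2), with Sdc2 the largest part in every library, at 44.1% to 46.4% in PC and 39.9% to 40.7% in control libraries.

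Ratios within a library, which do not depend on its scaling, were taken for pairs picked after their values were seen and carry no test. Per kb of exon, Itgb3 stood to Itgav at 0.081 and 0.0822 with PC sg2, 0.11 and 0.108 with PC sg5, against 0.347 and 0.343 in the controls. Zyx stood to Vcl at 4.48, 4.5, 4.17 and 3.89 in the PC libraries and 1.63 and 1.58 in the controls, and Ptk2 to Vcl at 0.485, 0.476, 0.48 and 0.45 in PC and 0.184 and 0.183 in control libraries. Within these pairs the genes changed unequally, a result that picking pairs by their values favours. Parva stood to Lims1, its partner in the same complex, at 0.471, 0.466, 0.471 and 0.481 in the PC libraries and 1.14 and 1.18 in the controls, so that Parva was above Lims1 in the controls and below it in every PC library. The size of this ratio depends on the length used. Annotated exons and the longest coding transcript have 10157 and 4454 bases for Parva, and 4891 and 4327 for Lims1. Itgb7 stood to Itgb3 at 3.93, 3.17, 2.72 and 2.62 in PC and 0.32 and 0.26 in control libraries.

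**Figure D4:**
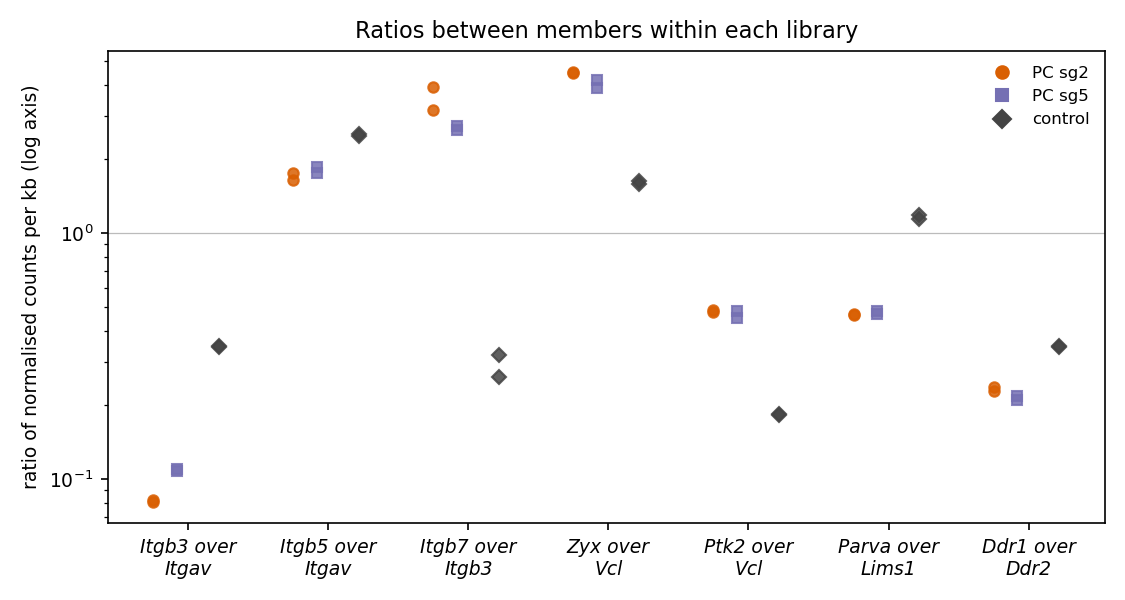
Ratio between pairs of genes within each library, from normalised counts per kb of exon (log axis), 1 point per library. The mean of Itgb3 over Itgav is 0.0953 in PC and 0.345 in control libraries, and that of Zyx over Vcl is 4.26 in PC and 1.61 in control libraries.

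Each guide alone gave a similar picture, with the same 2 controls in both comparisons. PC sg2 against control, 27 of the 36 genes fell and 6 rose, where 31.6% of all genes tested fell and 32.9% rose (64.5% passed). PC sg5 against control, 28 fell and 6 rose, where 31.8% of all genes fell and 32.6% rose (64.5% passed). The gene past the threshold with PC sg5 and not with PC sg2 was Src (log2 fold change -0.13 with PC sg5, adjusted p = 0.00931, and -0.09 with PC sg2, adjusted p = 0.0776, by limma), and the guides did not differ for it past the threshold (adjusted p = 0.754). Log2 fold changes with PC sg2 and PC sg5 were -1.50 and -1.69 for Itga1, -1.24 and -1.20 for Vcl, -0.85 and -0.86 for Tln1 and 1.44 and 1.40 for Itgb7.

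PC sg5 against PC sg2, 1 of the 36 genes passed the threshold, where 0.242% of all genes tested did (0.139% higher with PC sg5). It was Itgb3, whose levels are given above for each library, and which showed a log2 difference of 0.36 ± 0.07 (SE) with a limma adjusted p of 0.0288. Pcx itself was higher with PC sg5 than with PC sg2 by 1.05 ± 0.08 (SE) on the log2 scale. The call for Itgb3 was lost without either control, without either PC sg2 library and without PC sg5 replicate 1, where the difference was 0.31 to 0.38 and the limma adjusted p 0.0534 to 0.145, and also without the intensity trend (adjusted p = 0.52). Tns1 (0.20 ± 0.04, SE, adjusted p = 0.0517) and Zyx (-0.12 ± 0.03, adjusted p = 0.0516) were just outside the threshold.

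Further genes of integrin adhesions moved in both directions. Of a list of 71 such genes 62 had a row: 30 fell (48.4%) and 22 rose (35.5%), while 10 missed the threshold, against 33.6% that fell and 34.3% that rose among all genes tested. The share that rose is near that of all genes. Their median log2 fold change was -0.08. Among them 14 of 24 further adaptors fell and 8 rose, and 5 of 7 further actin linkers fell and 1 rose. Among 11 kindlins and integrin regulators 4 fell and 3 rose, and among 6 further integrin chains 4 fell and 1 rose. Fermt2, the kindlin of fibroblasts that binds beta tails beside talin, had 3901, 4106, 3917 and 3950 normalised counts in the PC libraries and 6177 and 6672 in the controls, a log2 fold change of -0.69 ± 0.04 (SE) with a limma adjusted p of 4.00e-13.

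The lowest fold changes of that list were in Ptk2b, which encodes the FAK relative PYK2, at -1.88 ± 0.08 (SE), in the adaptor gene Sorbs2 at -1.78 ± 0.26, in Tgfb1i1, which encodes the paxillin relative HIC-5, at -1.33 ± 0.04 and in the LIM protein gene Csrp1 at -1.31 ± 0.03. Ptk2b had 457, 403, 382 and 455 in the PC libraries and 1560 and 1555 in the controls, whereas its relative Ptk2 rose. The highest were in Cass4, a member of the p130Cas family, at 3.34 ± 0.19, in Parvg, which encodes the parvin of blood cells, at 1.72 ± 0.23, in Elmo1, a partner of DOCK proteins in Rac activation, at 0.96 ± 0.10 and in the adaptor gene Crkl at 0.83 ± 0.03. Cass4 had 253, 331, 301 and 351 in the PC libraries and 37.3 and 23.2 in the controls, with 21.2% of its exon bases shared with another gene. Parvg had 112, 105, 80.9 and 96.2 in PC and 31.3 and 26.8 in control libraries. Crkl, which binds phosphorylated p130Cas, had 7001, 7236, 6911 and 7124 in the PC libraries and 3947 and 4004 in the controls. For each of these 8 genes limma gave an adjusted p of at most 3.05e-06, with no overlap between PC and control libraries.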

How the data were processed

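RNA from 6 libraries of NIH-3T3 pools was analysed: PC sg2, PC sg5 and the control guide R26 sg1, 2 libraries each, grouped by their titles. Per the labels, RNA came from Trizol extraction and libraries were made from its poly-A fraction (NEBNext Ultra kit). STAR, featureCounts, DESeq2, Trimmomatic, bcl2fastq 2.17 and the build GRCm38 are named, per the submitters' processing notes; for settings, annotation and strand, sources used here give nothing. For 16540 genes the authors deposited normalised counts, a signal that scales the count of a gene by 1 size factor per library. Whole reads were recovered, since 100% of non-zero values were multiples of 1 step per library (tolerance 0.01). The lowest total of a listed gene was 61 reads. The 3-read floor was 2.18 to 6.41 normalised counts per library and covers counting error only. Symbols were found for 16498 identifiers.

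Limma 3.58.1 in R 4.3.3 was fitted to log2(normalised count + 1) with 3 groups in 1 model over 6 libraries, two-sided tests, an intensity trend and Benjamini-Hochberg adjustment over the 16526 genes that reached 10 normalised counts in 2 or more libraries (14 removed). Fold changes are on that scale and understate changes of low genes. The model has 3 residual degrees of freedom. No label ties the libraries of a guide to separate cultures, so p-values measure the spread between these libraries, which may be technical. Alternatives were a pseudocount of 5, no filter, a mean of at least 50, quantile normalisation, rescaling without the 50 most abundant genes, no trend, a replicate block, leaving out each library, and edgeR 4.0.16 and DESeq2 1.42.0 on recovered reads, of which edgeR called 11424 and DESeq2 10604 genes for both guides against control. The procedure was run on simulated data in which few genes changed and every gene had the same relative spread beyond counting error. In these data 67.9% of genes passed for both guides against control, so that run does not give the error rate here.

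All 36 genes with a row are named. Of the further adhesion list, the 4 highest and 4 lowest past the threshold and Fermt2 are named by rule. Itga2b, Itga8, Itga10, Itgae and Itgb2 of that list are named besides. The members and lists were chosen with earlier results of these data known. Groups of 2 libraries allow no outlier test.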

Additional observations from a re-analysis of the deposited data

Results flagged for a closer look

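Itgb3 is listed here because the direct test of PC sg5 against PC sg2 separated the guides for it: the level was 800 and 750 normalised counts with PC sg5 and 596 and 614 with PC sg2, a log2 difference of 0.36 with a limma adjusted p of 0.0288. It is 1 of 40 genes past the threshold in that comparison. PC sg5 replicate 2 has the fewest reads, and without it the difference was 0.40. The call was lost when any other library was left out, with differences of 0.31 to 0.38. It was also lost without the intensity trend (limma adjusted p = 0.52).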

How the results depend on the processing

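For both guides against control, 533 of 540 values of the 36 genes (15 alternatives each) kept the same call. Another 6 lost the call (Itgav, Src and Itga9), and 1 turned while past the threshold: Ddr2, 0.08 under quantile normalisation. Itga7 and Lims2 were never past the threshold, and their sign changed under some alternatives (0.18 and 0.16 under quantile normalisation). The count of members past the threshold was 32 to 34 under every alternative, and that of all genes 9795 to 11424. The median log2 fold change of all genes was -0.01, 0.05 under quantile normalisation and 0.03 after rescaling without the 50 most abundant genes. For PC sg5 against PC sg2 the count of members was 1; it was 3 with a pseudocount of 5, with a mean of at least 50 and with the replicate block (Itgb3, Tns1 and Zyx each time), 2 with quantile normalisation, after rescaling without the 50 most abundant genes and with edgeR (Itgb3 and Tns1), and 0 with limma without the intensity trend, where 4 members had an unadjusted p under 0.05. Leaving out each library gave 0 to 2, with 5 to 12 at an unadjusted p under 0.05 by limma. DESeq2 called Zyx alone and gave Itgb3 no adjusted p. The cause was not tested. Same-numbered libraries deviated together by correlations of -0.0219 to 0.0307, so the numbers do not pair them; the block changed no call among the 36 genes for both guides against control (34). A group left with 1 library is assumed to vary like the others. The 2 controls limit every comparison with control, and genes with few reads, Itga9, Itgb8 and Lims2, are least precise.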
